A study of Mus musculus with 4 samples.

Results

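The 10 transcription factors studied here are known for their part in the endothelial lineage and were followed in single cells of the mouse aorta. They are the ETS factors Erg, Fli1, Ets1, Ets2 and Elk3, the SoxF factors Sox7 and Sox18, and Tal1, Gata2 and Mef2c. They were chosen by name, with earlier results of these data known. All 10 were listed in the tables of each mouse, out of 16408 genes listed in any of them. Cells sorted as CD31+ CD45- TO-PRO-3- had been sequenced by SORT-seq, a plate method in which every transcript receives, at its 3′ end, a tag for its well and a random identifier that lets copies be counted once (UMI), on 1 plate of 384 wells per mouse. The mice labelled EC-KO (n = 2, mouse 1 and mouse 2) carried floxed Epas1 with Cdh5Cre/+, a Cre that tamoxifen activates (CreERT2 in the study's methods), and those labelled EC-WT (n = 2, mouse 1 and mouse 2) were littermates with floxed Epas1 and no Cre. All 4 mice were given tamoxifen at 6 weeks of age and analysed 2 weeks later. Cdh5 drives the Cre in endothelial cells, so smooth muscle cells and fibroblasts in the sort are not its target, and the floxed alleles are common to both groups. The comparison addresses what loss of Epas1, which encodes a hypoxia-inducible transcription factor, does to aortic endothelium.

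Endothelial genes carry ETS binding sites in their promoters and enhancers, and ETS factors bind there together with SoxF, GATA, TAL1 and MEF2 proteins. ERG and FLI1 maintain endothelial identity in adult vessels, whereas ETS1 and ETS2 are also active in angiogenesis and in many other cell types. ELK3 is a ternary complex factor that can repress transcription. SOX7 and SOX18 act in arterial, venous and lymphatic specification, TAL1 and GATA2 work in shared complexes in blood and endothelium, and MEF2C lies upstream of the flow-responsive factors KLF2 and KLF4 and is active in muscle too.

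A well was kept as a cell with at least 1000 UMIs outside spike-in and mitochondrial genes and at most 25% mitochondrial UMIs, which left 157, 98, 114 and 72 cells in EC-KO mouse 1, EC-KO mouse 2, EC-WT mouse 1 and EC-WT mouse 2 (the order used for all lists of 4 values below). Cells with at least 2% of UMIs from 11 smooth muscle genes are called smooth muscle-high (10, 5, 2 and 2 cells), and unless stated otherwise values are from the other 422 cells, which held between 549570 and 1010794 UMIs per mouse. Levels are given as UMIs scaled to a total of 1000000 (CPM). Since 1 UMI is 1 tagged 3′ end, levels of different genes are compared without dividing by length. How fully the 3′ end of each gene was captured and annotated was not tested, so an order of genes by level describes these counts. Of the 422 cells, 421 had a UMI of Pecam1 or Cdh5, which mark endothelium, and Ptprc, the gene of CD45, had 1 UMI in all. Pecam1, the gene of CD31, also had a UMI in 14 of the 19 smooth muscle-high cells, so 1 UMI does not separate endothelium from other sorted cells. Epas1 measured 3101, 3342, 3341 and 2415 CPM, so it was not lower in the mice labelled EC-KO; the 3′ tag does not read a deletion elsewhere in the gene and does not check the labels. The study's methods count more cells from EC-WT than from EC-KO mice, whereas the labels of the plates give the reverse, so the groups are described throughout as labelled; an exchange of the labels would turn the sign of every difference between them. The tables of EC-KO mouse 2 and EC-WT mouse 1 name the same flow cell.

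In GRCm38 (GENCODE M21), Fli1 (chr9:32422204-32542861, minus strand) and Ets1 (chr9:32636221-32757820, plus strand) are neighbours 93.4 kb apart, and Erg (chr16:95359169-95586593, minus strand) and Ets2 (chr16:95702075-95721051, plus strand) are neighbours 115 kb apart. Elk3 (chr10:93247414-93311135, minus strand) overlaps Cdk17 on the opposite strand, whose reads could not be separated if the counting did not use strand, which is not given in the sources used here. Sox7 (chr14:63943673-63950732) and Tal1 (chr4:115056426-115071755), Gata2 (chr6:88193891-88207032) and Mef2c (chr13:83504034-83667080) lie on the plus strand and Sox18 (chr2:181669836-181671640) on the minus strand. The promoters of Elk3, Ets2 and Mef2c are printed because these genes were each called higher in the Cd36/Fabp4-high cells described below. Ets1 and Fli1 were also called higher there, but no promoter of them was available. The sequences are from RefSeq (GRCm38.p6) and run 5′ to 3′ from 250 bases before to 50 after the start. Capitals show GGAAG or CTTCC on the printed strand, 1 extended form of the ETS core. Other occurrences of GGAA or TTCC are not marked.
Elk3 promoter, chr10:93311110-93311409, minus strand: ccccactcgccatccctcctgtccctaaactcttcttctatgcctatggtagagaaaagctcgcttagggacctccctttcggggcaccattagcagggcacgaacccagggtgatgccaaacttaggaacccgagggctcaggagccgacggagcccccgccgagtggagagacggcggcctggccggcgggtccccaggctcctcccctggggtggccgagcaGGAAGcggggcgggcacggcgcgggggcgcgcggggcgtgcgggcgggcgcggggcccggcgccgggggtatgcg
Ets2 promoter, chr16:95702157-95702456, plus strand: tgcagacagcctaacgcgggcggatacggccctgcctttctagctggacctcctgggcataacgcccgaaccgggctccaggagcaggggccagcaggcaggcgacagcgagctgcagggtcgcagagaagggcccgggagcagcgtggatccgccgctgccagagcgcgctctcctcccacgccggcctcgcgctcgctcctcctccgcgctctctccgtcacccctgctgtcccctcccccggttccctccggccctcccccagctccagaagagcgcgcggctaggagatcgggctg
Mef2c promoter, chr13:83503784-83504083, plus strand: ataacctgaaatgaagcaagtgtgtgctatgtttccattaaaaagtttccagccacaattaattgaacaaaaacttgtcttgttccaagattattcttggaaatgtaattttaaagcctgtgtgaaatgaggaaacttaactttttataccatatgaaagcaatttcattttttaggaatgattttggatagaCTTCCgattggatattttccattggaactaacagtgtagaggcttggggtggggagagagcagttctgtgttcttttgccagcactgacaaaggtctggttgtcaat
The Elk3 promoter and the Mef2c promoter printed, the first of 3 listed for that gene, hold 1 match of this form each. The Ets2 promoter holds none of this form, though it holds an unmarked TTCC. The other Mef2c promoters (chr13:83523406-83523705 and chr13:83573357-83573656, plus strand) hold 3 matches each. The motif was found in 71.4% of 32851 promoters of the same length, and in 7 of the 12 promoters available for 6 of the factors (Tal1, Gata2, Elk3, Mef2c, Erg and Ets2), so a match is common and marks no site of binding.

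The factors spanned a wide range of levels, from Sox18 and Gata2 at the top to Erg at the bottom. Sox18 measured 437, 507, 464 and 226 CPM (mean 409 ± 125, SD, n = 4 mice), and EC-WT mouse 2 was below the others. Its relative Sox7 measured 146, 111, 158 and 116 CPM (mean 133 ± 22.9, SD, n = 4). Sox7 was lower than Sox18 in every mouse, and the ranges of the 2 SoxF factors did not overlap. Gata2 measured 348, 561, 379 and 313 CPM (mean 400.4 ± 111, SD, n = 4), with EC-KO mouse 2 above the others. Tal1, which shares complexes with GATA2, measured 84.1, 123, 112 and 94.6 CPM (mean 103 ± 17.4, SD, n = 4). Mef2c measured 41.6, 60.9, 54.3 and 45.5 CPM (mean 50.6 ± 8.72, SD, n = 4). The 3 factors outside the ETS and SoxF families thus differed widely in level, with no overlap between Gata2, Tal1 and Mef2c.

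Among the ETS factors, Elk3 was the most abundant at 204, 213, 283 and 238 CPM (mean 234 ± 35.2, SD, n = 4). Fli1 measured 81.1, 107, 97.8 and 131 CPM (mean 104 ± 20.8, SD, n = 4). Ets2 measured 48.5, 39.7, 55.9 and 80.1 CPM (mean 56.0 ± 17.3, SD, n = 4). In each mouse Elk3 was above Fli1 and Fli1 above Ets2. Ets1 measured 31.7, 56.9, 31.0 and 32.8 CPM (mean 38.1 ± 12.6, SD, n = 4), with EC-KO mouse 2 apart from the other 3 mice. Erg, the ETS factor best known as an endothelial marker, measured 17.8, 18.5, 13.97 and 23.7 CPM (mean 18.5 ± 3.98, SD, n = 4), from 54 UMIs in all. In the order of mean levels (Sox18, Gata2, Elk3, Sox7, Fli1, Tal1, Ets2, Mef2c, Ets1, Erg), neighbours did not overlap between Gata2 and Elk3, Elk3 and Sox7, Tal1 and Ets2, and Ets1 and Erg. The other neighbours overlapped: Sox18 was above Gata2 in 2 of 4 mice and Fli1 above Tal1 in 1 of 4.

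**Figure D1:**
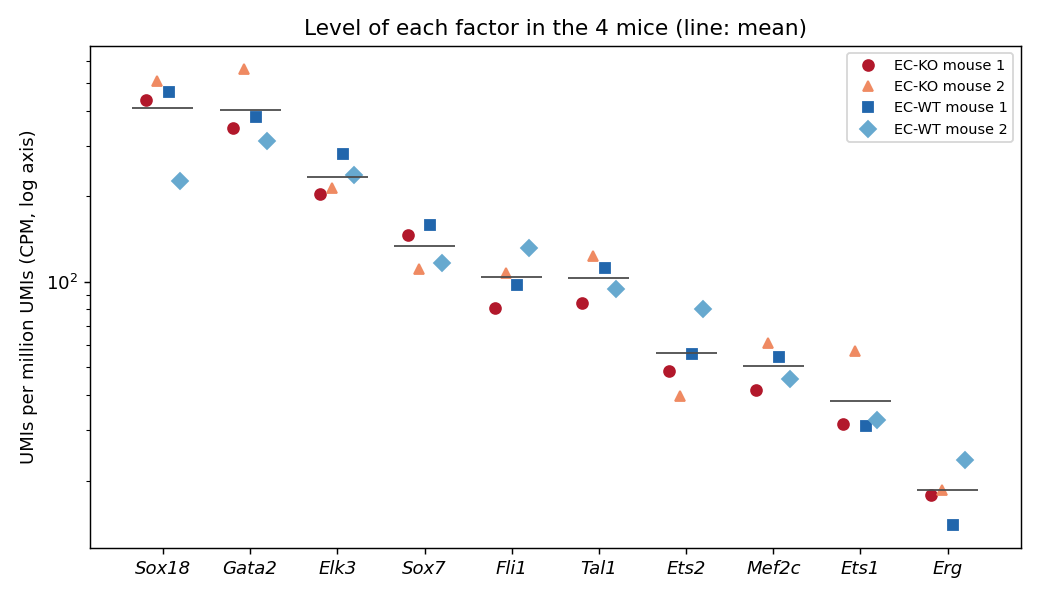
Level of each factor in CPM (log axis) in each of the 4 mice, with the mean as a line; factors are ordered by mean. Sox18 and Gata2 lie at the top, Elk3 at 204 to 283 CPM comes next, and Erg is lowest at 13.97 to 23.7 CPM.

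Detection in single cells followed much the same order. A UMI of Sox18 was found in 115 of 147 cells of EC-KO mouse 1 (78.2%, exact binomial 95% interval 70.7% to 84.6%), and in 84.9%, 67.9% and 55.7% of cells of the other mice. Gata2 was found in 60.0% to 84.9% of cells per mouse and Elk3 in 54.4% to 63.4%. Sox7, Fli1 and Tal1 were each found in 27.7% to 50.5% of cells per mouse. Ets2, Mef2c and Ets1 were found in 12.5% to 31.4%, and Erg in 4.46% to 10.8%. The interval covers counting error only. With each cell thinned to 1000 UMIs, Sox18 was found in 20% to 39.8%, Gata2 in 22.9% to 35.5% and Elk3 in 16.3% to 27.7% of cells, and no other factor in more than 12.5%. After thinning, Erg had no UMI in the 70 cells of EC-WT mouse 2, of which 7 had one with all UMIs.

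**Figure D2:**
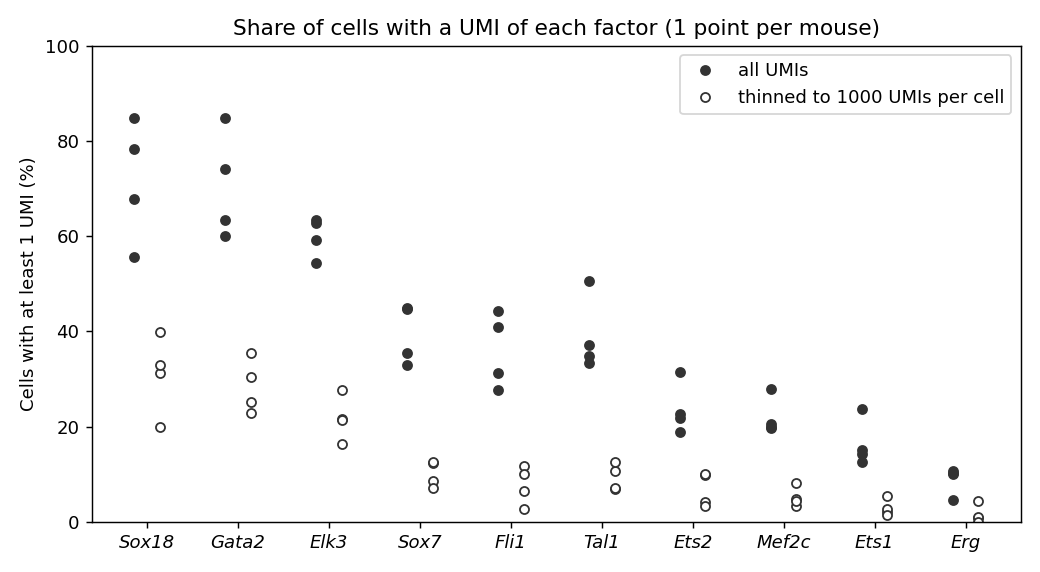
Share of cells with at least 1 UMI of each factor (percent, 1 point per mouse), from all UMIs (filled) and after thinning each cell to 1000 UMIs (open). Sox18 reached 55.7% to 84.9% with all UMIs and 20% to 39.8% after thinning.

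A cell showed a median of 4 of the 10 factors, none showed more than 9, and 14 of 422 cells (3.32%) showed none. The median rose from 1 factor in the 64 cells with 1000 to 2000 UMIs to 6 in the 139 cells with at least 8000. The summed level of the 10 factors did not follow depth in the same way, at 1393 CPM in the shallowest cells and 1559 CPM in the deepest. Per mouse it was 1440.5, 1799.6, 1648.5 and 1301.0 CPM. The 480 wells of rows L to P of the plates held no kept cell and 28791 UMIs. Pooled over the plates, those wells gave 14 UMIs of Sox18 (486 CPM), 12 of Gata2 (417 CPM) and 6 of Elk3 (208 CPM), close to their levels in the cells. Tal1 gave 5 UMIs (174 CPM, against 84.1 to 123 CPM in the cells). By plate, Sox18 there was at 831, 822, 226 and 0 CPM, from 7, 6, 1 and 0 UMIs. Fli1, Ets1, Ets2 and Sox7 gave 1 or 2 UMIs there, and Erg and Mef2c gave 0, which allows up to 3 UMIs.

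No factor differed between the mice labelled EC-KO and EC-WT beyond the spread between mice. In edgeR's quasi-likelihood test on UMIs summed per mouse, 0 of 8131 genes (0%) passed an adjusted p of 0.05; DESeq2 also called 0, and 446 genes had an unadjusted p under 0.05, none of them among the 10 factors. The smallest adjusted p of a factor was 0.883. The 2 groups overlapped for 8 of the 10 factors. Elk3, at 204 and 213 CPM in EC-KO mice, was below both EC-WT mice, and Ets2, at 39.7 and 48.5 CPM in EC-KO mice, was also below both; groups without overlap were seen for 35.5% of all tested genes.

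Fitted log2 fold changes (EC-KO over EC-WT) of the ETS factors were -0.57 ± 0.30 (SE) for Ets2, -0.29 ± 0.20 for Elk3, -0.25 ± 0.25 for Fli1, 0.00 ± 0.48 for Erg and 0.48 ± 0.38 for Ets1. Sox18 stood at 0.47 ± 0.27, Gata2 at 0.41 ± 0.23, Mef2c at 0.05 ± 0.32, Tal1 at 0.02 ± 0.25 and Sox7 at -0.06 ± 0.24. The 95% intervals bound what these 4 mice leave possible: for Elk3 they ran from -0.71 to 0.13, for Gata2 from -0.07 to 0.90, and for Erg from -1.03 to 1.04. The median over the 10 factors was 0.01, against 0.00 over all genes tested. The values moved when single mice were left out: Ets1 ranged from 0.06 to 0.84, Gata2 from 0.08 to 0.70, Ets2 from -0.79 to -0.32, Fli1 from -0.44 to -0.06 and Elk3 from -0.43 to -0.14, while those of Erg, Sox7, Tal1 and Mef2c changed sign. Among the 10, a call arose in Sox18: without EC-WT mouse 1 its log2 fold change was 1.11 (edgeR adjusted p = 0.00700), with EC-WT mouse 2 alone in its group and assumed to vary like the others, and without EC-WT mouse 2 it was 0.03. The replicate labels do not say whether mice of a number share a litter or day. The p-values rest on a spread between mice that edgeR estimated partly from the other genes tested, not from each factor alone.

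**Figure D3:**
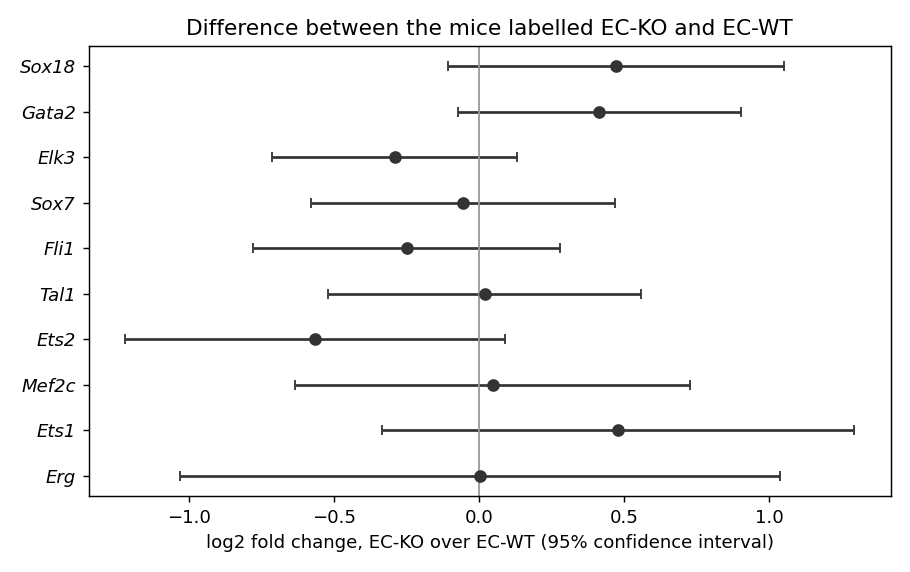
Log2 fold change of each factor, EC-KO over EC-WT as labelled, with its 95% confidence interval from edgeR on 4 mouse sums. All 10 intervals include 0; Ets2 lies lowest at -0.57 and Ets1 highest at 0.48.

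Markers of other cells moved with the labels in the same cells. The 11 smooth muscle genes summed to 580, 930, 275 and 328 CPM, and the 8 fibroblast genes to 2877, 1833, 1246 and 1589 CPM, both higher in the EC-KO mice. Their part in the values of the 10 factors was not tested. The EC-KO and EC-WT mouse on the same flow cell gave log2 ratios of 0.88 for Ets1, 0.41 for Erg, 0.13 for Fli1, -0.41 for Elk3 and -0.49 for Ets2, with no test possible. For the other factors the ratios were 0.57 for Gata2, 0.16 for Mef2c, 0.14 for Tal1, 0.13 for Sox18 and -0.51 for Sox7. Among 34 tested of 46 other endothelial factors, and 28 tested of 32 endothelial genes, 0 were called.

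In the 19 smooth muscle-high cells Pecam1 and Cdh5 were low (log2 fold changes of -2.44 and -2.36), Tal1, Sox7 and Sox18 were lower than in the other cells, and Mef2c was higher. Tal1 had 0, 1, 0 and 0 UMIs in them, against 84.1 to 123 CPM in the other cells of the mice. The ratio of its levels was 0.0502 (95% counting interval 0.00127 to 0.282). Sox7 had 1, 3, 0 and 0 UMIs (12.8, 31.3, 0 and 0 CPM), against 111 to 158 CPM in the other cells. Sox18 had 4, 8, 2 and 2 UMIs (51.2, 83.4, 419 and 121 CPM), against 437, 507, 464 and 226 CPM. The 2 UMIs in each EC-WT mouse came from 1 cell and give no direction there, and in the EC-KO mice 4 of 4 and 7 of 8 UMIs came from 1 cell each. These 3 factors were lower by edgeR with the mouse as a block (Tal1 adjusted p = 0.00437, Sox18 log2 fold change -2.22 ± 0.61, adjusted p = 0.00591, and Sox7 -2.64 ± 0.82, adjusted p = 0.0208). In this comparison edgeR took the spread from the tested genes together, so a factor's own spread between mice did not enter its p-value separately.

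Mef2c went the other way. It measured 179, 688, 0 and 121 CPM in smooth muscle-high cells and 41.6, 60.9, 54.3 and 45.5 CPM in the others (log2 fold change 2.31 ± 0.59, adjusted p = 0.00273), and was higher in 3 of 4 mice. Of its 82 UMIs in the class, 46 came from 1 cell of EC-KO mouse 2 with 47621 UMIs, whose smooth muscle share of 2.07% was just above the threshold. With a threshold of 4%, which leaves out that cell and others, the log2 fold change was 1.90 (adjusted p = 0.0159). Gata2 (-1.53 ± 0.57, adjusted p = 0.0754), Elk3 (-1.56 ± 0.62, adjusted p = 0.103), Fli1 (-1.32 ± 0.73), Ets1 (-0.13 ± 0.78) and Ets2 (0.70 ± 0.65) did not pass, and Erg, with 3 UMIs in the class, was below the count filter. The factors called were 4 of 9 tested, beside 8.16% of 5185 genes, with 1 higher beside 3.14% and 3 lower beside 5.01%. The fibroblast genes were also higher in these cells in 4 of 4 mice, and their part in the values was not tested. Gata2 was close to the threshold and was called lower in 7 alternatives: without EC-WT mouse 1 (-1.69) or EC-WT mouse 2 (-2.40), at thresholds of 1% (-1.60) and 4% (-3.67), with RLE scaling (-1.51), without the filter (-1.85) and without the mouse as a block (-1.60). In the main setting the Gata2 level was lower in the class in 2 mice and higher in 2 (3, 9, 2 and 9 UMIs in the class). Elk3 was called lower in 2 alternatives, at a threshold of 4% (-4.51) and without the mouse as a block (-1.45).

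The EC-KO mice held 15 of the 19 cells, and all 4 calls were lost without either of them. Without EC-KO mouse 1 the log2 fold changes were -1.88 for Sox18 and 2.10 for Mef2c, and adjusted p for the 4 factors ran from 0.182 to 0.361. Without EC-KO mouse 2 they were -2.06 and 1.43, and adjusted p ran from 0.144 to 0.624. For Tal1 1 and 0 UMIs, and for Sox7 3 and 1 UMIs, were then left in the class, too few for a fold change. In the comparison of labelled groups, leaving the smooth muscle-high cells in moved Mef2c to 0.85 (adjusted p = 0.753). The call of Sox7 was also lost without EC-WT mouse 2 (-2.49, adjusted p = 0.0688) and at a threshold of 1% (-1.98), and that of Sox18 after thinning (-3.05). The share of cells with a UMI of Erg was 15.8% in the smooth muscle-high cells and 8.77% in the others, at median depths of 5385 and 5582 UMIs. That of Ets1 was 15.8% against 16.1%. That of Ets2 was 36.8% against 22.7%, and that of Mef2c 57.9% against 21.8%. Sox18 was found in 26.3% against 73.2% of cells and Gata2 in 36.8% against 71.3%. These shares were not tested.

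The clearest differences among the endothelial cells lay in those rich in Cd36 and Fabp4, which encode a fatty acid transporter and a fatty acid-binding protein. Cells with at least 1000 CPM and 3 UMIs of the 2 genes together are called Cd36/Fabp4-high (12, 4, 13 and 7 cells). Ets1, Ets2, Mef2c, Fli1 and Elk3 were higher there than in the other cells of the same mice, whereas Sox18, Tal1, Gata2 and Sox7 did not pass the test. The difference between families was not tested. No factor took part in choosing the cells, and 5 of 9 tested factors were called beside 5.44% of 5003 genes, all 5 of them higher (2.72% of genes) and 0 lower (2.72%). The factors and the class were chosen with earlier results of these data known, so this share is not independent support. Erg was below the filter.

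Ets1 measured 167, 302, 130 and 152 CPM in Cd36/Fabp4-high cells, against 22.2, 44.5, 22.02 and 23.5 CPM in the others. All 4 values in the class were above all 4 outside it (log2 fold change 2.69 ± 0.48, 6.47-fold, adjusted p = 1.01e-04). In EC-KO mouse 2, the highest, 9 of the 11 UMIs in the class came from 1 of 4 cells. In EC-WT mouse 2 the 6 UMIs came from 1 of 7 cells, and the share of cells with a UMI was 14.3% inside and outside the class. Ets2 measured 227, 165, 204 and 228 CPM, against 36.0, 33.4, 42.4 and 68.6 CPM. It was also higher without overlap (2.21 ± 0.45, 4.63-fold, adjusted p = 7.62e-04), with 7 of the 9 UMIs of EC-WT mouse 2 in 1 cell. Mef2c measured 121, 357, 92.8 and 178 CPM, against 36.0, 45.9, 50.8 and 35.3 CPM (1.99 ± 0.49, 3.98-fold, adjusted p = 0.00695). It was higher in each mouse, least so in EC-WT mouse 1, where 4 of 5 UMIs came from 1 cell. In EC-KO mouse 2, the highest and the mouse without which the call was lost, 10 of 13 UMIs came from 1 cell.

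Fli1 measured 197, 110, 204 and 457 CPM in the class, against 73.0, 107, 88.1 and 106 CPM in the others (1.28 ± 0.39, 2.43-fold, adjusted p = 0.0425). In EC-KO mouse 2 the 2 values hardly differed, and in EC-WT mouse 2 15 of the 18 UMIs in the class came from 1 cell. Elk3 measured 197, 658, 761 and 482 CPM, against 204, 191, 239 and 219.5 CPM (1.16 ± 0.28, 2.23-fold, adjusted p = 0.00594). It was higher in 3 of 4 mice and level in EC-KO mouse 1. The class held 6.62% of all UMIs but 31.0% of those of Ets1, 25.8% of Ets2, 22.3% of Mef2c, 15.4% of Fli1 and 14.3% of Elk3. Counts behind these shares were small, with 35 UMIs of Ets1 in 12 of the 36 cells, 41 of Ets2 in 19, 33 of Mef2c in 14, 46 of Fli1 in 16 and 97 of Elk3 in 26.

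**Figure D4:**
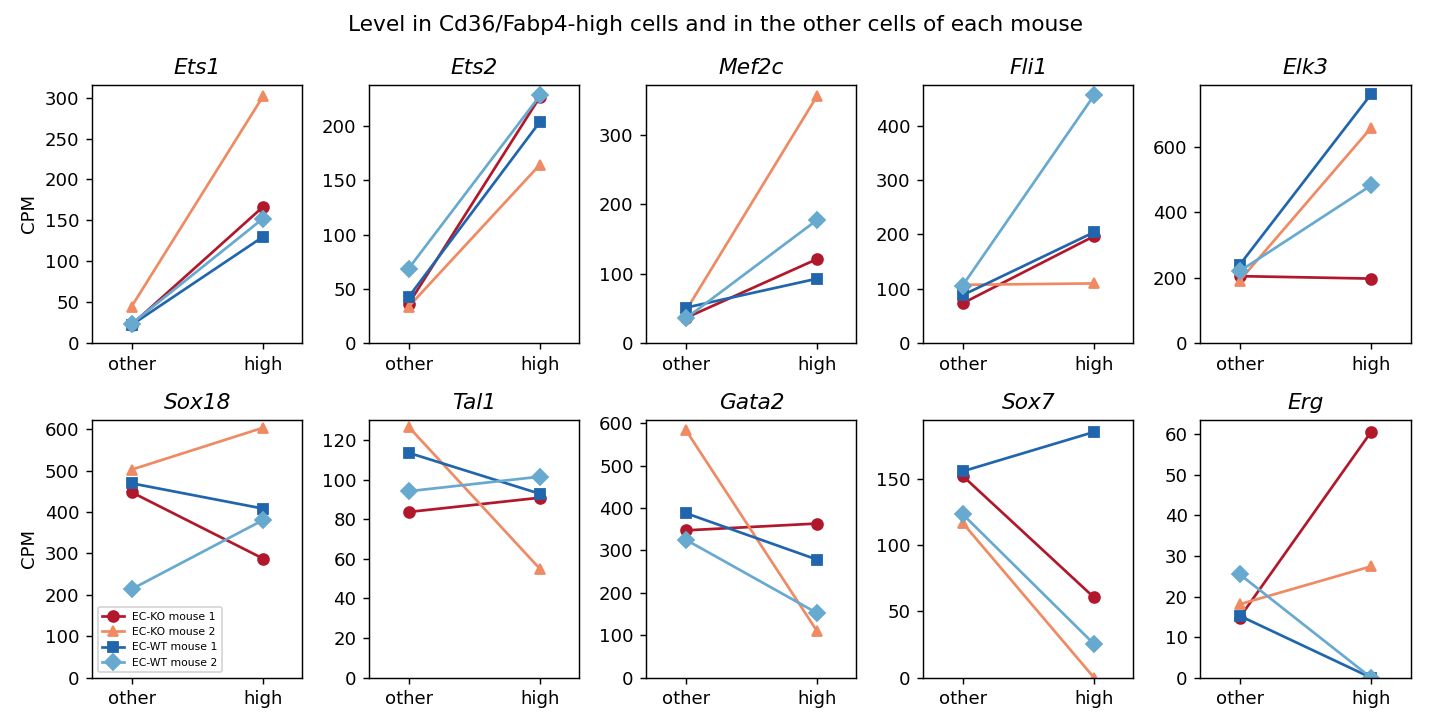
Level of each factor (CPM) in the Cd36/Fabp4-high cells ("high") and the other cells ("other") of each mouse, joined by a line per mouse; axes start at 0 and differ between factors. Ets1, Ets2, Mef2c and Fli1 are higher in the class in 4 of 4 mice and Elk3 in 3 of 4, whereas Sox18, Tal1, Gata2, Sox7 and Erg have no direction common to all 4 mice.

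The remaining factors were not called. Sox18 measured 288, 603, 408 and 380 CPM in the class against 448, 502, 469 and 214 CPM (log2 fold change -0.01 ± 0.25, 95% interval -0.52 to 0.51), so a change as large as that of Ets1 lay outside its interval. Tal1 stood at -0.27 ± 0.48. Gata2 measured 363, 110, 278 and 152 CPM against 347, 584, 388 and 325 CPM (-0.79 ± 0.30, adjusted p = 0.159). Sox7 measured 60.6, 0, 186 and 25.4 CPM against 152, 117, 156 and 123.5 CPM (-1.06 ± 0.51, adjusted p = 0.330). Both were lower in 3 of 4 mice. Their unadjusted p-values in edgeR were 0.0129 and 0.0439, and their 95% intervals (-1.40 to -0.18 and -2.09 to -0.03) lay below 0. Erg had 4, 1, 0 and 0 UMIs in the class.

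Ets1 and Ets2 were called under each of 11 alternative settings, with adjusted p up to 0.00680 and 0.0225. The call of Mef2c was lost only without EC-KO mouse 2 (log2 fold change 1.59, adjusted p = 0.148). That of Elk3 was lost without EC-KO mouse 2 (0.93), without EC-WT mouse 1 (0.93) and in 3 of the other 10 settings tried. That of Fli1 was the least stable and was lost in 6 of 11 settings, among them without EC-KO mouse 1 (1.16), EC-WT mouse 1 (1.28) or EC-WT mouse 2 (0.94); Gata2 was called lower without EC-KO mouse 1 (-1.29, adjusted p = 0.0114) and without the filter on low counts (-1.14, adjusted p = 0.0104).

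Markers of other cells were measured in the same class. The 14 endothelial markers summed to 11580 to 17932 CPM, against 11228 to 14534 CPM in the others, and were higher in 4 of 4 mice. The 11 smooth muscle genes were also higher in 4 of 4 mice, at 685 to 2089 CPM against 200 to 917 CPM; 10 of them had a UMI and Actg2 was at 0. Their part in the rise was not tested. In smooth muscle-high cells the levels over all mice were 46.1 CPM for Ets1, 76.8 CPM for Ets2, 35.8 CPM for Fli1, 81.9 CPM for Elk3 and 419.8 CPM for Mef2c, and in Cd36/Fabp4-high cells 179, 209, 235, 495 and 169 CPM. These levels pool the mice, the order of the classes differed between mice for Mef2c and Ets2, and the classes were not tested against each other. Fibroblast genes were lower in 4 of 4 mice. The immune genes reached at most 37.1 CPM. The lymphatic genes reached 411 CPM in EC-KO mouse 2, from 15 UMIs in 1 cell; Prox1 and Pdpn had no UMI inside or outside the class. Median depth was 4623 UMIs in the class and 5675 in the others.

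Other factors changed in the same cells. Of 28 tested from the list of 46, 3 were higher (Meox2 at 6.73 ± 0.63, Nr2f2, a factor of venous and capillary endothelium, at 5.46 ± 0.46, and Tcf4, a basic helix-loop-helix partner, at 2.08 ± 0.26 on the log2 scale). Another 4 were lower: Gata3 (1 UMI in the class, ratio 0.0451, counting interval 0.00114 to 0.253), Hey2, a Notch target of arterial cells (-1.86 ± 0.53), Gata6 (-1.11 ± 0.30) and Klf2 (-0.88 ± 0.24). Of the 27 tested endothelial genes, 7 were higher, led by Robo4 (5.29 ± 0.66), the VEGF receptor gene Kdr (4.92 ± 0.60) and Emcn (2.70 ± 0.24). Vcam1 (-1.52 ± 0.28), Cldn5 (-1.18 ± 0.27) and Pecam1 (-0.77 ± 0.15) were lower. The median log2 fold change was 1.16 over the 9 tested factors, close to 0 over the 28 others, 0.10 over the 27 endothelial genes and -0.07 over all genes. Epas1 itself measured 2210.1, 2441, 2932 and 1623 CPM against 3163, 3388, 3378 and 2476 CPM and did not pass (-0.48 ± 0.16, adjusted p = 0.0683).

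In smooth muscle-high cells, 20 of 25 tested endothelial genes were lower, led by Arap3, Heg1 and Vwf (log2 fold changes of -4.41, -4.01 and -3.52), and 0 were higher. Of 25 tested other factors 5 were lower, among them the TAL1 partner Lmo2 (-2.29 ± 0.56), Epas1 (-2.16 ± 0.55) and Klf4 (-1.93 ± 0.55). The lower Tal1, Sox7 and Sox18 thus stood among endothelial genes that were mostly lower, with a median of -2.31 over the 25 genes, -1.53 over the 9 tested factors and -0.27 over all genes.

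Cells with at least 1000 CPM and 3 UMIs of Dcn, a fibroblast gene, are called Dcn-high (15, 3, 3 and 0 cells), and were compared in the 3 mice that held any. Of 9 tested factors 0 were called, beside 0.845% of 5797 genes, 0.328% higher and 0.518% lower. Endothelial markers were lower in these cells in 3 of 3 mice (7899 to 12536 CPM against 11680 to 14741 CPM). The 11 smooth muscle genes were higher in 3 of 3 mice (563 to 1894 CPM against 268 to 888 CPM). The part of these genes in the values was not tested. Median depth was 7958 UMIs in the class and 5381 in the others. Sox18 measured 419, 257 and 0 CPM against 440, 518 and 475 CPM (log2 fold change -0.90 ± 0.39), lower in 3 of 3 mice. Gata2 measured 253, 160 and 493 CPM against 360, 579 and 376 CPM (-0.78 ± 0.39). Their unadjusted p-values were under 0.05 in edgeR and their adjusted values were 0.506 and 0.673. Here too the spread was taken from the tested genes together. From the lists, Emcn was higher (2.12 ± 0.37), and Cldn5 (-1.97 ± 0.42) and Klf2 (-1.28 ± 0.33) were lower.

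In the top 25% of cells of each mouse by Klf2 plus Klf4 level (37, 23, 28 and 18 cells), the flow-responsive factors downstream of MEF2C, 0 of 9 tested factors passed, beside 0.624% of 5768 genes, 0.329% higher and 0.295% lower. Mef2c measured 39.5, 35.9, 70.5 and 23.4 CPM in these cells and 42.5, 68.0, 51.4 and 52.2 CPM in the others (-0.40 ± 0.37, 95% interval -1.17 to 0.37). It was lower in 3 of 4 mice. Sox18 (0.27 ± 0.18) and Tal1 (0.31 ± 0.24) had the largest positive values, and Tal1 was higher in 4 of 4 mice. The interval of Gata2 was narrow (-0.17 to 0.51), so any change with Klf2 and Klf4 was small beside that of Ets1 or Ets2 in Cd36/Fabp4-high cells.

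**Figure D5:**
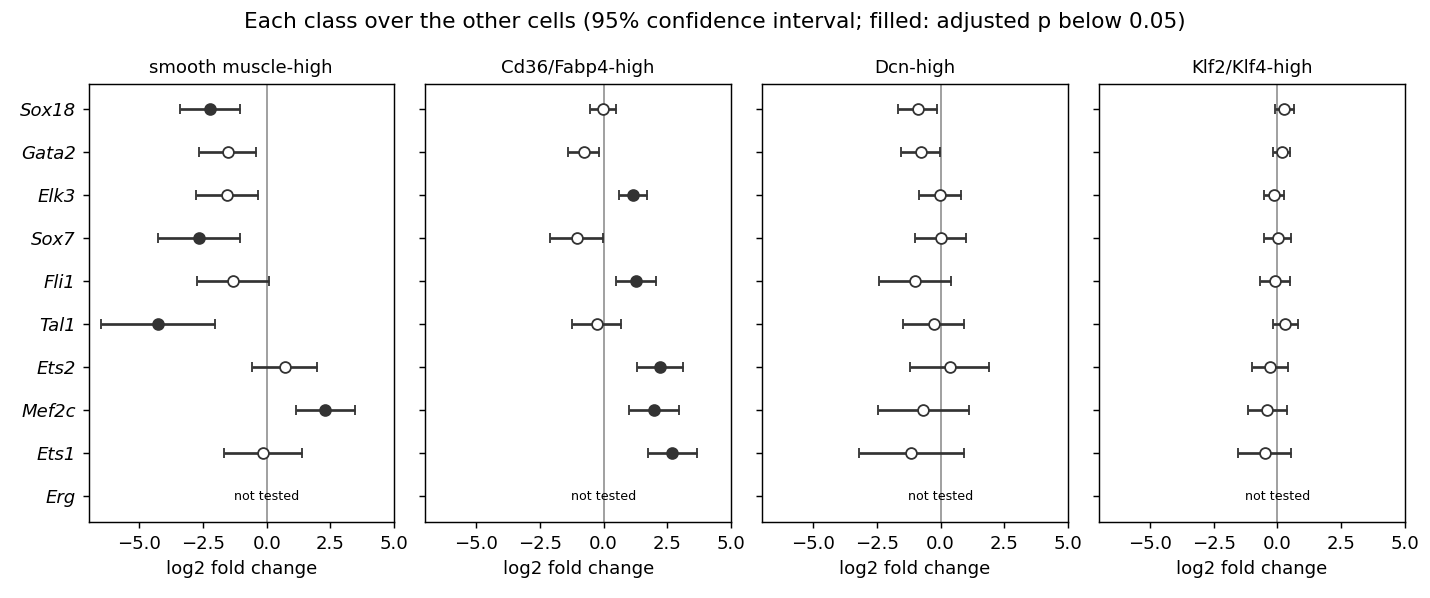
Log2 fold change of each factor in 4 classes of cells over the other cells, with 95% confidence intervals (edgeR, mouse as a block); filled points passed an adjusted p of 0.05. Ets1 at 2.69 and Ets2 at 2.21 lead the Cd36/Fabp4-high cells, Tal1, Sox7 and Sox18 are lower and Mef2c higher in smooth muscle-high cells, and no point is filled for Dcn-high or Klf2/Klf4-high cells.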

How the data were processed

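For each plate the authors deposited UMI counts, read counts, and expected counts of transcripts, which are not whole and lie slightly above the UMI counts. Per the labels' processing notes reads were aligned with BWA 0.7.15 to GRCm38/mm10; the annotation and strand setting are not given in the sources used here. ERCC spike-ins (17.9% to 25.8% of UMIs) and mitochondrial genes were left out. The main tests used the deposited UMI counts summed per mouse, or per mouse and class, with edgeR 4.0.16 (TMM scaling, filterByExpr, the quasi-likelihood F test and Benjamini-Hochberg adjustment over all genes tested) in R 4.3.3; class comparisons had the mouse as a block. Standard errors of the edgeR fits were derived from the log2 fold change and the F statistic, and the 95% intervals from them. Both are approximate where counts are small. DESeq2 1.42.0 was an alternative, and expected counts were rounded after summing. Well barcodes are the same set on each plate, so shared barcodes mark no shared cell, and no doublet caller was run. Shares carry exact (Clopper-Pearson) 95% intervals, which like the limit of 3 UMIs for a count of 0 cover counting error only. The tests were also run on simulated data, and the outcome is not given here. Python 3.11.15, pandas 2.3.3, scipy 1.17.1 and matplotlib 3.10.9 were used.

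The 10 factors, the lists of 46 factors and 32 endothelial genes and the classes were chosen with earlier results of these data known. From the lists, up to 3 called genes per direction with the largest change were named, with Epas1, Pecam1, Cdh5, Ptprc and Acta2 as checks and the genes that set the classes. Alternatives were other normalization, tests, filters, depths, class thresholds and tables, a replicate block, and each mouse left out. Leaving out Cd36/Fabp4-high cells (labelled groups) or Dcn-high cells (Cd36/Fabp4-high comparison) was added after seeing the data. Over 8131 genes the deviations of same-numbered mice correlated at -0.04, so the numbers were not taken to pair mice.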

Additional observations from a re-analysis of the deposited data

Results flagged for a closer look

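In rows L to P of the plates, where no well was kept as a cell, 4 of 40 sums (10 factors in 4 mice) were above the limit of 3 UMIs that a count of 0 allows: Sox18 with 7 UMIs in EC-KO mouse 1 and 6 in EC-KO mouse 2, Tal1 with 4 UMIs in EC-KO mouse 1, and Gata2 with 5 UMIs in EC-KO mouse 2. The 120 wells of these rows held 8423 and 7301 UMIs in the 2 plates.

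In 5 of 30 cases examined (10 factors in 3 classes) the difference between a class and the other cells had 1 sign in both EC-KO mice and the other sign in both EC-WT mice. These were 1 of 10 factors in smooth muscle-high, 1 of 10 in Cd36/Fabp4-high and 3 of 10 in Klf2/Klf4-high cells, beside 9.59%, 9.37% and 12% of the genes tested there, so the count is no result about the factors. The differences between groups were not tested, and several signs rest on a few UMIs or a few CPM. Gata2 was lower in smooth muscle-high cells of both EC-KO mice (3 and 9 UMIs in the class) and higher in both EC-WT mice (2 and 9 UMIs), and the mean difference of EC-KO minus that of EC-WT was -525 CPM. Erg was higher in Cd36/Fabp4-high cells of the EC-KO mice (4 and 1 UMIs) and at 0 UMIs in those of the EC-WT mice, a contrast of 47.9 CPM. In Klf2/Klf4-high cells the contrast was 20.7 CPM for Erg, 75.8 CPM for Fli1 and -50.8 CPM for Sox7. Fli1 there measured 102 and 126 CPM in the EC-KO mice, against 72.2 and 102 CPM in their other cells, and 30.2 and 117 CPM in the EC-WT mice, against 110.1 and 135 CPM. Erg there had 7, 4, 0 and 2 UMIs in EC-KO mouse 1, EC-KO mouse 2, EC-WT mouse 1 and EC-WT mouse 2. Sox7 was lower than in the other cells of both EC-KO mice (135 against 151 CPM and 95.7 against 116 CPM) and higher in both EC-WT mice (161 against 158 CPM and 164 against 102 CPM).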

How the results depend on the processing

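With 2 mice a group, 36 cells or fewer in most classes and 54 UMIs of Erg in all, small differences of the rarer factors were beyond what the depth could show. For the labelled-group comparison 177 values were counted over the alternatives, not all of them log2 fold changes, and 153 were unchanged. For a log2 fold change, unchanged means the same direction and side of the threshold. In the class comparisons 65 of 90 values were unchanged for smooth muscle-high, 81 of 102 for Cd36/Fabp4-high, 73 of 84 for Dcn-high and 81 of 93 for Klf2/Klf4-high cells. The cause of each change below was not tested. Some factors had too few UMIs to be tested after thinning and have no value there. Without a filter on low counts the median of all genes moved to -0.96 in smooth muscle-high, -0.69 in Cd36/Fabp4-high, -0.78 in Dcn-high and -0.18 in Klf2/Klf4-high cells.

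Genes called between labelled groups (0 in the main test) numbered 19 without a filter, 2 with at least 50 UMIs, 10 with all kept cells, 2 after thinning, 1 without Cd36/Fabp4-high cells, and 17 to 73 with a mouse left out. With the replicate number as a block 0 were called, and the block changed no call of a factor; the numbers were not shown to pair mice. For smooth muscle-high cells (423) the counts were 733 without a filter, 636 at the higher threshold, 876 with no replicate block for the mouse, 101 after thinning and 98 to 673 with a mouse left out. For Cd36/Fabp4-high cells (272) they were 174 at the lower and 425 at the higher threshold, 52 after thinning and 160 to 282 with a mouse left out. For Dcn-high cells (49) they were 12 with DESeq2, 20 at the higher threshold, 79 with no replicate block, 7 after thinning and 7 to 52 with a mouse left out. For Klf2/Klf4-high cells (36) they were 22 with DESeq2, 73 without a filter, 8 with no replicate block, 8 after thinning and 13 to 38 with a mouse left out.

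The log2 fold changes that follow changed sign, and none of them was a call. Between labelled groups Erg was at -0.0045 with DESeq2, -0.044 with at least 2000 UMIs per cell, -0.32 with read counts, -0.27 without Cd36/Fabp4-high cells and -0.33 to 0.39 with a mouse left out. Tal1 was at -0.086 with all kept cells, -0.11 with read counts, -0.33 after thinning and -0.23 to 0.25 with a mouse left out. Read counts also gave 0.060 for Fli1, 0.040 for Ets2, 0.30 for Sox7 and -0.12 for Mef2c. Sox7 was at 0.12 after thinning and -0.31 to 0.21 with a mouse left out, and Mef2c at -0.064 without Cd36/Fabp4-high cells and -0.20 to 0.28 with a mouse left out. In smooth muscle-high cells Ets2 was at -0.12 at the higher threshold and -0.0040 to 0.94 with a mouse left out, and Ets1 at 0.30 with no replicate block and -0.11 to 0.12 with a mouse left out. In Cd36/Fabp4-high cells Sox18 was at 0.022 with RLE scaling, 0.038 with DESeq2, 0.16 at the lower threshold, 0.30 after thinning and -0.25 to 0.15 with a mouse left out, and Tal1 at 0.056 at the lower threshold. In Dcn-high cells Elk3 was at 0.043 with RLE scaling and -0.34 to 0.25 with a mouse left out. Sox7 there was at -0.0086 with DESeq2, -0.21 without a filter, -0.095 at the lower and -0.55 at the higher threshold and -0.53 to 0.36 with a mouse left out. At the lower threshold Ets2 was at -0.14 and Gata2 at 0.18, and Ets2 ranged from -0.078 to 1.04 with a mouse left out. In Klf2/Klf4-high cells Sox7 was at -0.062 without a filter, -0.033 at the higher threshold, -0.0027 with no replicate block and -0.19 to 0.13 with a mouse left out. The lower threshold gave 0.28 for Fli1, 0.049 for Mef2c and -0.011 for Gata2, and the higher gave 0.46 for Ets1, 0.050 for Ets2 and -0.0077 for Gata2. Elk3 was at 0.066 after thinning, and Fli1 at -0.32 to 0.19 with a mouse left out.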
